A study of Mus musculus with 12 samples.

Results

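Genes of the endoplasmic reticulum (ER) stress response and the amino acid response, 10 in number (Hspa5, Xbp1, Herpud1, Sdf2l1, Ddit3, Atf4, Trib3, Asns, Chac1 and Ern2), were followed in the mouse colorectum during colitis and berberine treatment. They were picked by symbol, and each has 1 row among the 17734 genes of the expression table. All 10 are among the 15315 genes that were tested, those averaging 0.1 or more across mice. Bulk RNA-seq was done on 12 adult male C57BL/6 mice, 3 in each of 4 groups. Normal mice carry water in their titles and no other treatment. Colitis mice received dextran sulfate sodium (DSS), a polymer that injures the bowel lining, for 7 days. Berberine (BBR), a plant alkaloid, was given by gavage for 6 days per the labels to a second group of mice without DSS and to a second group of mice with DSS. The labels call the tissue colorectum and the study's methods call it rectum, and the DSS model injures the lining chemically, so the groups are a model of injury colitis only. Values are read as FPKM, a level scaled for transcript length and sequencing depth, so levels can be set side by side between genes.

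Proteins for secretion fold in the ER with the help of chaperones, and unfolded proteins there switch on 3 membrane sensors, IRE1, PERK and ATF6. IRE1 splices the messenger of the transcription factor XBP1, PERK slows translation and raises ATF4, and ATF6 is cut to release a transcription factor. Amino acid shortage reaches ATF4 by another kinase, GCN2. The colon has a second IRE1, IRE1β, which is encoded by Ern2 and is found in the gut epithelium, mainly in its mucus-making goblet cells.

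Promoter sequences show which of the 10 genes have exact matches to the short motifs through which these factors are known to act. RefSeq promoters (GRCm38.p6, 250 bases before to 50 after the start) were at hand for 9 of the 10. Ern2 had no entry. The motifs were searched on both strands, and their matches are a description of letters only. Sites with other letters or outside these bases were not looked for, so a gene without a match may still have the element. The submitters' processing notes name build mm9 for the expression values, and no coordinate of that build is used here. The ER stress element (ERSE, CCAAT and CCACG with 9 bases between) is in 0.119% of 32851 promoters and lies in that of Hspa5. The related ERSE-II (ATTGG and CCACG with 1 base between) is in 0.0365% and lies in that of Herpud1. The core of the CARE motif (TGATGNAA), to which ATF4 and its partners bind, is in 3.97% of promoters and lies upstream of the start in Herpud1, Asns and Chac1, and past the start in Trib3. The core TGACGTGG of the UPRE motif is in 0.676% and in 0 of the 9 members. The stretches around the upstream matches are shown 5′ to 3′ on the gene's strand, with the matches in capitals, because they are the upstream matches found among the members.
Hspa5, chr2:34772015-34772053, + strand: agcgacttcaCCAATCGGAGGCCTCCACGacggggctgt
Herpud1, chr8:94386307-94386397, + strand: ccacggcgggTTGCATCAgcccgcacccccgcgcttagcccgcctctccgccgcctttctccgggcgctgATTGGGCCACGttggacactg
Asns, chr6:7693215-7693242, − strand: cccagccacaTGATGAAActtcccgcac
Chac1, chr2:119351039-119351066, + strand: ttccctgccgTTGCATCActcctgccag
The ERSE of Hspa5 lies at −65 to −47 from the start, and the ERSE-II of Herpud1 at −52 to −42. The CARE core lies at −112 to −105 in Herpud1, −23 to −16 in Asns and −193 to −186 in Chac1. Herpud1 is the member with matches to both kinds of motif.

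Values are listed in the order of the mouse numbers, which run 1, 3, 4 without DSS (with or without BBR), 1, 2, 4 for colitis and 2, 3, 4 for colitis with BBR. The levels span 3 classes. Hspa5 had the highest mean over the 12 mice (269.1 FPKM), above 97.76% of the tested genes, and Xbp1 (112.8), Herpud1 (111.7) and Atf4 (88.59) followed. Ddit3 (23.11), Sdf2l1 (22.74), Ern2 (19.83) and Asns (16.45) made a middle class, and the ranges of neighbours in this order overlap. Chac1 had a mean of 1.327 FPKM and Trib3 0.3925, the latter above only 11.66% of the tested genes. The spread of log2(FPKM + 0.1) over the 12 mice was largest for Chac1 (SD 1.27) and smallest for Sdf2l1 (SD 0.34).

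**Figure D1:**
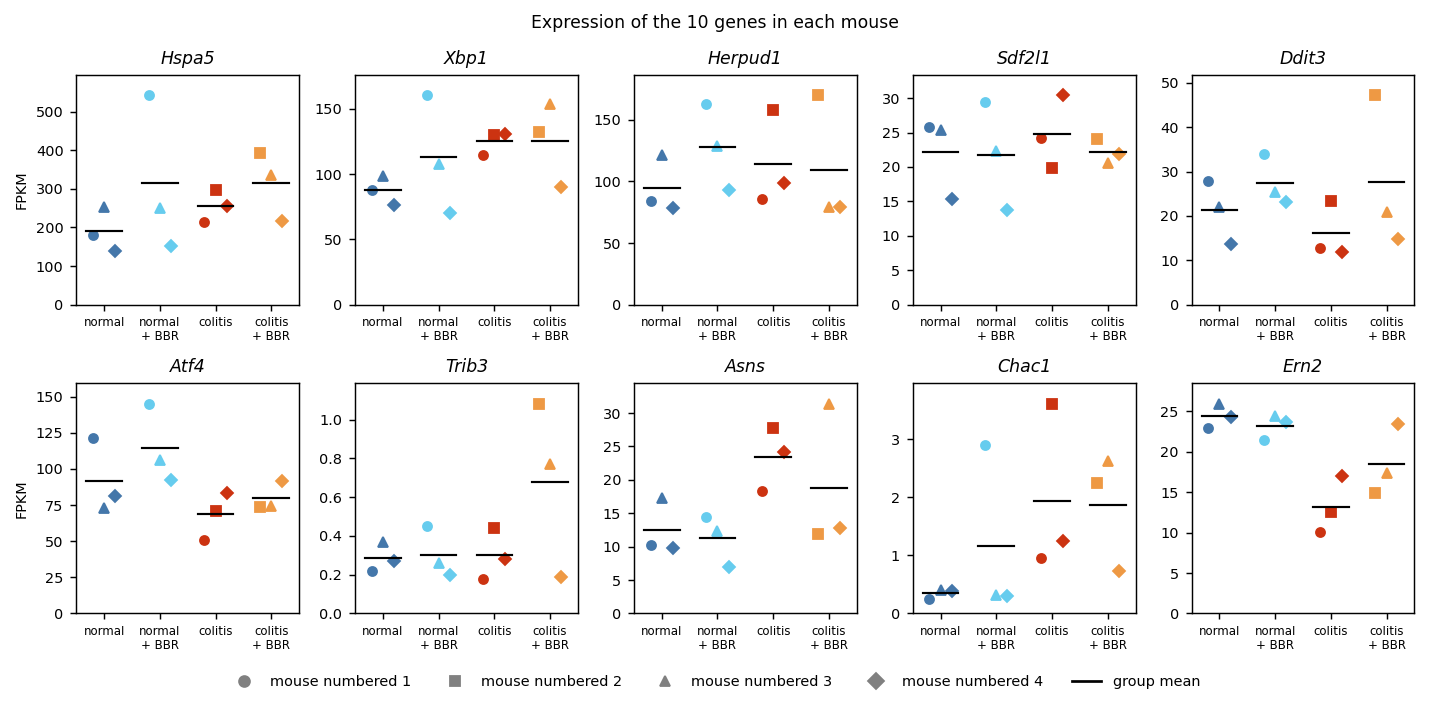
Expression of each of the 10 genes in FPKM (vertical axes, each starting at 0) in 4 groups of 3 mice; each symbol is 1 mouse, its shape gives the mouse number in the labels, and the line is the group mean. All 3 colitis mice lie below all 3 normal mice for Ern2 and above them for Xbp1, Asns and Chac1.

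The mice differ in ways the groups do not explain. The mice numbered 4, 1 in each group, had column totals of 482194 to 504337, against 696286 to 765876 in the others, and 872 to 1086 genes at 0 against 1332 to 1926. Whether they form a batch cannot be told from the labels. Differences without them rest on 2 mice a group and are given beside many of the results. Markers of other cells moved too. Summed levels of 8 smooth muscle markers were 1668 to 3140 FPKM in normal and 73.4 to 673.9 in colitis mice, with all 8 lower. Those of 8 plasma cell markers were 263.2 to 343.6 against 84.1 to 159.5, with 7 of 8 lower and Prdm1 higher (log2 difference 2.66). Epithelial markers, 10 in number, summed to 9586 to 13326 and 9358 to 12893. The 10 squamous epithelium markers summed to 10.2 to 66.7 FPKM in normal and 42.3 to 444.2 in colitis mice. The granulocyte and macrophage lists were higher in colitis mice in 8 of 8 markers each, and none of these markers was at 0 in every mouse. In bulk RNA, fewer cells of a type and less RNA per cell cannot be told apart.

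Ern2 stood lower in colitis. It measured 22.93, 25.87 and 24.32 FPKM in the normal mice and 10.07, 12.58 and 16.99 in the colitis mice. The colitis mice all lay below the normal mice, and the highest of them, mouse 4, is nearest. The means were 24.37 ± 1.47 and 13.21 ± 3.5 (SD, n = 3 each). The difference was −0.91 on the log2 scale (SE 0.22), with a limma unadjusted p of 0.00161 and an adjusted p of 0.0691, which missed the limit of 0.05. In an exact two-sided permutation test 3 against 3 cannot go below p = 0.1, and it gave 0.1. The limma adjusted p was 0.0215 with the mice numbered 4 as a block and 0.0375 without them, where the difference was −1.11, and 0.0422 without colitis mouse 4. It stayed between 0.0536 and 0.211 in the other alternatives. The difference was smaller on other scales, −0.70 after quantile normalization and −0.57 with each mouse's median set to a common value (centring).

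Colitis mice given BBR had Ern2 values of 14.87, 17.32 and 23.38 FPKM. Of these, 2 lie above every colitis mouse, and all lie below every normal mouse except that mouse 4, at 23.38, is above normal mouse 1. The difference from colitis mice was 0.49 (SE 0.22, limma unadjusted p = 0.0483, adjusted p = 0.771, exact permutation p = 0.2). It was 0.31 without colitis mouse 1 and 0.31 without mouse 4 of the BBR group, over 1.5 times smaller in both cases. The limma unadjusted p was above 0.05 with the replicate block (0.0704), without a trend (0.0703) and in a fit of the 2 groups alone (0.132). It was also above 0.05 without colitis mouse 1 (0.207) or 2 (0.0924) or BBR-treated mouse 3 (0.0651) or 4 (0.19). It was 0.0233 without BBR-treated mouse 2, 0.00991 without colitis mouse 4, 0.00579 after quantile normalization and 0.00183 after centring. In mice without DSS, BBR made a difference of −0.07 for Ern2 (21.48, 24.45 and 23.65 FPKM, SE 0.22, limma adjusted p = 1.0). The test of whether the 2 effects of BBR differ, the interaction, gave 0.56 (SE 0.32, limma unadjusted p = 0.1, adjusted p = 1.0), with an unadjusted p of 0.0199 after quantile normalization and 0.0114 after centring and an adjusted p of 1.0 in both.

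Atoh1, the transcription factor of the secretory lineage, followed Ern2. It was 28.58 to 34.44 FPKM in normal, 9.88 to 20.61 in colitis and 19.52 to 33.35 in BBR-treated colitis mice, and its Pearson r with Ern2 over the 12 mice was 0.926. Goblet cell products did not all follow. Muc2, the main mucin, was 415.2 to 581.4 in normal and 352.1 to 1105 in colitis mice, and its r with Ern2 was −0.263. The 10 goblet markers split 3 higher and 7 lower in colitis, with a median of −0.18, against −0.32 for all tested genes. Retnlb, another goblet cell product, had a log2 difference of 5.71. For BBR in colitis the differences of the 10 markers were positive for 9, with a median of 0.58, against −0.09 for all tested genes, and none had an unadjusted limma p of at most 0.05. The 3 tested genes most like Ern2 by Pearson r over the 12 mice were Nyap1 (0.951), Tmprss13 (0.950) and Pdlim3 (0.947). The summed smooth muscle markers were 503.1, 482.5 and 3516 FPKM in the BBR-treated colitis mice 2, 3 and 4, so mouse 4 was highest there as for Ern2. Their part in the Ern2 values was not tested.

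**Figure D2:**
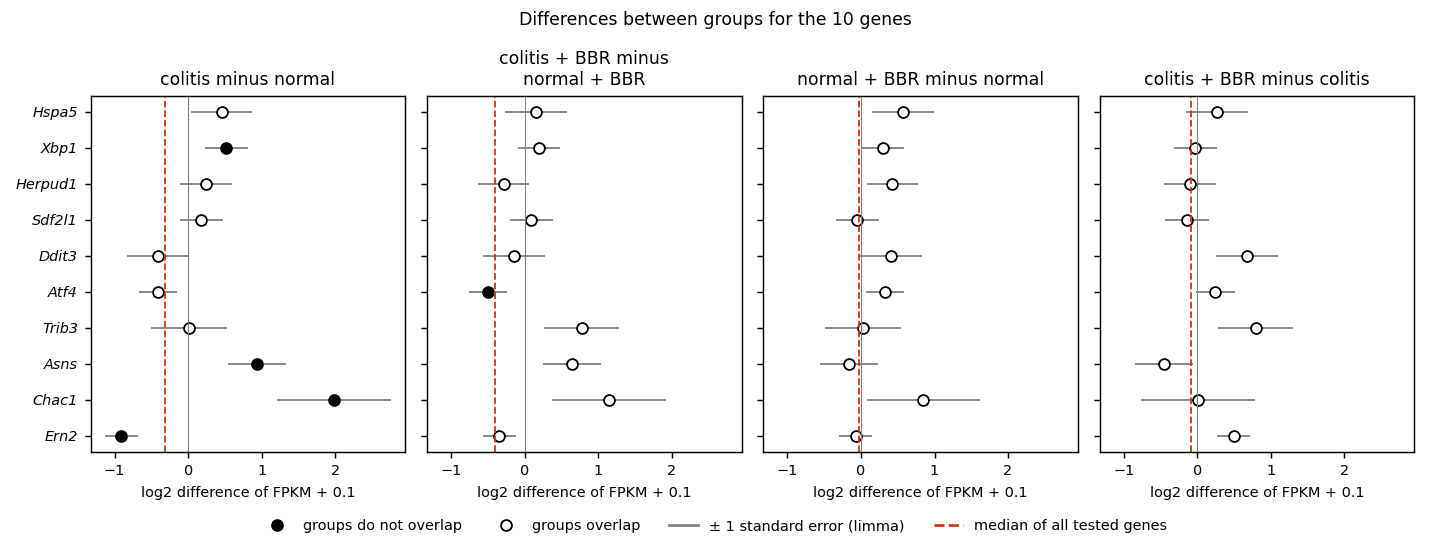
Differences of log2(FPKM + 0.1) between group means (horizontal axes) for the 10 genes in 4 comparisons; bars are ± 1 standard error from limma, filled points mark groups without overlap and the dashed line is the median of all tested genes. Only Ern2, Xbp1, Asns and Chac1 have filled points in colitis minus normal, and only Atf4 in colitis with BBR minus normal with BBR.

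In colitis against normal mice, 0 of the 10 members passed limma's adjusted limit, against 1.08% of all tested genes. At an unadjusted p of at most 0.05 there were 3, Asns, Chac1 and Ern2, where 21.4% of all tested genes are found. Asns and Chac1 leave this count without the mice numbered 4 (limma unadjusted p = 0.156 and 0.0513), and Xbp1 enters it with a block for those mice (0.044), after quantile normalization (0.0439) and in a fit of the 2 groups alone (0.0327). Asns also leaves it without normal mouse 1 or 4 or colitis mouse 2 or 4, and Chac1 without normal mouse 1 or colitis mouse 2. Xbp1, Asns and Chac1, 3 members, were higher without overlap, against 7.1% of all tested genes, and 1, Ern2, was lower without overlap, against 22.2%. Of the 10, 7 differences were positive, with a median of 0.21, while the median of all tested genes was −0.32. That all-gene median was −0.05 after quantile normalization and 0.02 after centring, so the members' differences are to be read relative to it. At the unadjusted limit 852 of 3280 genes were higher as deposited, 1488 of 3009 after quantile normalization and 1442 of 2687 after centring.

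Asns makes asparagine. Its level was 10.25, 17.31 and 9.77 FPKM in normal mice and 18.34, 27.82 and 24.13 in colitis mice. All colitis mice were above all normal mice, by little for colitis mouse 1 against normal mouse 3. The difference was 0.94 (SE 0.39, limma unadjusted p = 0.0358, adjusted p = 0.203), and 0.76 without the mice numbered 4. In BBR-treated colitis mice Asns was 11.96, 31.32 and 12.84, so 2 of 3 mice lay below every colitis mouse and 1 above. The difference from colitis was −0.45 (SE 0.39, limma adjusted p = 1.0), between −0.89 (without BBR-treated mouse 3) and −0.20 (without BBR-treated mouse 2) with 1 mouse left out, and −0.22 without the mice numbered 4. Without DSS, BBR-treated mice had 14.46, 12.27 and 6.99 FPKM, a difference of −0.16.

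Wars, the tryptophanyl-tRNA synthetase, was the second most like Asns of the tested genes (r = 0.948 over 12 mice). It was 37.96, 51.62 and 37.07 FPKM in normal and 74.28, 86.61 and 100.9 in colitis mice. The groups did not overlap (difference 1.05, limma adjusted p = 0.132). Among the 20 cytosolic aminoacyl-tRNA synthetases the differences were positive for 7 and negative for 13, with a median of −0.15, and Wars was the 1 with an unadjusted limma p of at most 0.05.

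Chac1 breaks down glutathione and is known as a target of ATF4. Its level was 0.25, 0.40 and 0.38 FPKM in normal mice and 0.95, 3.60 and 1.24 in colitis mice. The colitis mice were all higher, with mouse 2 far above the other 2. The means were 0.343 ± 0.0814 and 1.93 ± 1.45 (SD, n = 3), and the log2 difference was 1.98 (SE 0.77, limma unadjusted p = 0.0251, adjusted p = 0.179). It was 2.24 without the mice numbered 4, and 1.02 with a pseudocount of 1 in place of 0.1, which shows how far the value of this low gene depends on the pseudocount. These values rest on few reads. From the steps between low values, Chac1 is worth about 4.46 to 80.0 reads a mouse over 3 settings tried, and 3 reads are worth 0.0793 to 0.183 FPKM. Among BBR-treated mice without DSS, mouse 1 had 2.89 and the others 0.31 and 0.30 FPKM. The summed squamous markers of these mice were 171.0, 8.0 and 10.9 FPKM. The squamous sum was highest of all 12 in colitis mouse 2 (444.2), followed by BBR-treated colitis mouse 3 (358.2). They also had the highest and the third highest Chac1. BBR-treated colitis mouse 2 had a squamous sum of only 38.0 at a Chac1 of 2.25 FPKM. Normal mouse 3 had 66.7 at a Chac1 of 0.40. The part of squamous tissue in the Chac1 values was not tested. Colitis mice given BBR had 2.25, 2.63 and 0.73, within the range of colitis mice except that mouse 4 was lower.

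Rnf183, a membrane ubiquitin ligase of the ER, was the tested gene most like Chac1 (r = 0.941 over 12 mice). It was 0.40, 0.41 and 0.55 FPKM in normal mice and 3.1, 5.0 and 1.81 in colitis mice, and it too stood high in BBR-treated normal mouse 1 (3.46 against 0.36 and 0.30).

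Xbp1, the transcription factor activated by IRE1, was 87.63, 98.74 and 76.64 FPKM in normal and 114.35, 129.89 and 131.10 in colitis mice. All colitis mice were higher. The difference was 0.52 (SE 0.29, limma unadjusted p = 0.1, adjusted p = 0.304), 0.39 without the mice numbered 4 and 0.85 after centring. The table gives 1 value per gene, so spliced and unspliced Xbp1 are not told apart. Plasma cells, which depend on Xbp1, had lower summed markers in colitis, as given above, and their part was not tested. With BBR, colitis mice had 132.29, 153.82 and 90.33 FPKM, a difference of −0.03 (SE 0.29) whose direction turned to 0.23 without the mice numbered 4, 0.19 without BBR-treated mouse 4 and 0.12 after centring.

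The chaperone side was even less separated. Hspa5, which encodes BiP, the main ER chaperone and a brake on the 3 sensors, was 179.75, 252.57 and 139.46 FPKM in normal and 215.21, 295.94 and 256.58 in colitis mice. The groups overlapped (0.46, SE 0.42, limma adjusted p = 0.511), and the difference was 0.24 without the mice numbered 4 and 0.79 after centring. Sdf2l1, a partner in chaperone complexes, was 15.28 to 25.75 in normal and 19.82 to 30.39 in colitis mice (0.18, SE 0.29), and −0.22 without the mice numbered 4. Herpud1, a member of the ER degradation machinery, was 78.63 to 121.68 and 85.49 to 157.91 FPKM (0.24, SE 0.35), and the difference was −0.02 without colitis mouse 2 and with the replicate block.

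For the transcription factors Atf4 and Ddit3 the differences were negative and near the all-gene median. Atf4 was 121.08, 72.82 and 80.93 FPKM in normal and 51.08, 71.00 and 83.44 in colitis mice, 2 of which lay below every normal mouse. The difference was −0.41 (SE 0.26, limma adjusted p = 0.353), −0.64 without the mice numbered 4 and −0.08 after centring, and it lay between −0.57 and −0.19 with 1 mouse left out, the latter without normal mouse 1 and −0.22 without colitis mouse 1. Ddit3, which encodes CHOP, was 27.96, 22.08 and 13.68 in normal and 12.79, 23.41 and 11.98 in colitis mice (−0.41, SE 0.42, adjusted p = 0.555 by limma). The groups overlapped, and the difference was −0.07 after centring, between −0.71 and −0.18 with 1 mouse left out and −0.76 with the replicate number as a block (limma unadjusted p = 0.00789, adjusted p = 0.0811). Trib3, which binds ATF4 and CHOP, was 0.18 to 0.44 in colitis and 0.22 to 0.37 in normal mice (0.02, SE 0.51). Its level is worth only about 4.74 to 27.9 reads a mouse. ATF4 is controlled mostly at translation, which these data do not measure.

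With BBR in both arms, colitis mice had lower Atf4 than normal mice given BBR. The values were 144.78, 105.99 and 92.12 FPKM without DSS and 73.48, 74.68 and 91.69 with it, so the groups did not overlap, with 91.69 and 92.12 as the nearest values. The difference was −0.50 (SE 0.26, limma unadjusted p = 0.0821, adjusted p = 0.288) and −0.74 without the mice numbered 4, but −0.04 after centring. In that comparison 0 members passed the adjusted limit (0.0392% of all tested genes) and 0 an unadjusted p of at most 0.05 (19.7%). None was higher without overlap (2.26%), and Atf4 was the 1 lower without overlap (18.0%). Without the mice numbered 4, Atf4 (limma unadjusted p = 0.0407), Trib3 (0.0425) and Ern2 (0.0351) enter the unadjusted count, which then holds 5917 of 15043 genes. Without BBR-treated colitis mouse 4, Trib3 (0.00844) and Ern2 (0.0378) enter it among 5916 of 15311. Chac1 enters without BBR-treated normal mouse 1 (0.00652) and Atf4 without BBR-treated normal mouse 4 (0.0486). Asns enters after quantile normalization (0.0419) and centring (0.0364). Hspa1a, a cytosolic heat shock gene, was the gene most like Atf4 (r = 0.929 over 12 mice) and ranged from 1.77 FPKM in colitis mouse 1 to 137.75 in normal mouse 1.

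For BBR in colitis mice, 0 members passed the adjusted limit, as did 0.0% of all tested genes, and 1, Ern2, had an unadjusted p of at most 0.05 (6.39%). No member was higher (1.42%) or lower (5.66%) without overlap. Ern2 leaves the unadjusted count without colitis mouse 1 or 2 or BBR-treated mouse 3 or 4. Trib3 (limma unadjusted p = 0.0079) and Ddit3 (0.0299) enter it without BBR-treated mouse 4, where it holds 1663 of 15311 genes. Trib3 (0.0236) enters it without the mice numbered 4, Ddit3 (0.0489) without colitis mouse 2 and Asns (0.026) without BBR-treated mouse 3. Ddit3 was 47.18, 20.97 and 14.84 FPKM with BBR, against 12.79, 23.41 and 11.98 without. The highest of 12 values is that of BBR-treated colitis mouse 2. The difference was 0.67 (SE 0.42, limma unadjusted p = 0.133, adjusted p = 0.945), 0.20 without that mouse, 1.03 without BBR-treated mouse 4 and 0.86 without both mice numbered 4. Trib3 was 1.08, 0.77 and 0.19 with BBR, against 0.18, 0.44 and 0.28. Mice 2 and 3 lay above every other mouse, and mouse 4 was low, with a difference of 0.79 (SE 0.51, limma adjusted p = 0.963). It was 0.38 without BBR-treated mouse 2, 1.39 without BBR-treated mouse 4 and 1.38 without both mice numbered 4, and between those 2 mice alone it was −0.39. With a pseudocount of 1 it was 0.34 and with 0.01 it was 0.93. Mouse 2 had the highest Herpud1 too (169.79), with 79.65 and 79.45 in its group mates. Ddit3 was most like Pfkfb4 (r = 0.924), Ces2c (0.920) and Aqp8 (0.918), and Aqp8, a water channel of colon surface cells, was also highest in that mouse, at 2935 FPKM.

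BBR without DSS gave 0 members past the adjusted limit (0.0% of all tested genes), 0 at an unadjusted p of at most 0.05 (1.36%) and none higher (4.17%) or lower (5.46%) without overlap. The members' median difference was 0.31, against −0.02 for all tested genes, and 1 mouse had much of it. Hspa5 was 541.83 in BBR-treated normal mouse 1 and 249.94 and 152.95 in the others, against 139.46 to 252.57 in untreated mice. The difference was 0.57 (SE 0.42, limma adjusted p = 1.0), 0.08 without that mouse and 0.79 without both mice numbered 4. Without BBR-treated mouse 4 it was 0.99, with a limma unadjusted p of 0.0292, so Hspa5 then enters the unadjusted count. BBR-treated normal mouse 1 was highest of all 12 for Hspa5, Xbp1 (160.36) and Atf4 (144.78). In a count made after its values were seen, it was also highest for 8 of 20 ER chaperones and folding enzymes (40.0%) and 7 of 18 ER degradation genes (38.9%), against 6.36% of all tested genes. In the other lists it was highest for 3 of 18 sensors and regulators, 3 of 31 ATF4 targets and 2 of 20 synthetases. Colitis mouse 4 was highest for 8 of 20 synthetases, 9 of 31 ATF4 targets, 4 of 20 chaperones, 4 of 18 ER degradation genes and 4 of 18 sensors and regulators, against 9.39% of all tested genes. For the interaction of DSS and BBR, 0 members passed the adjusted limit (0.0%) or had an unadjusted p of at most 0.05 (2.42%).

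**Figure D3:**
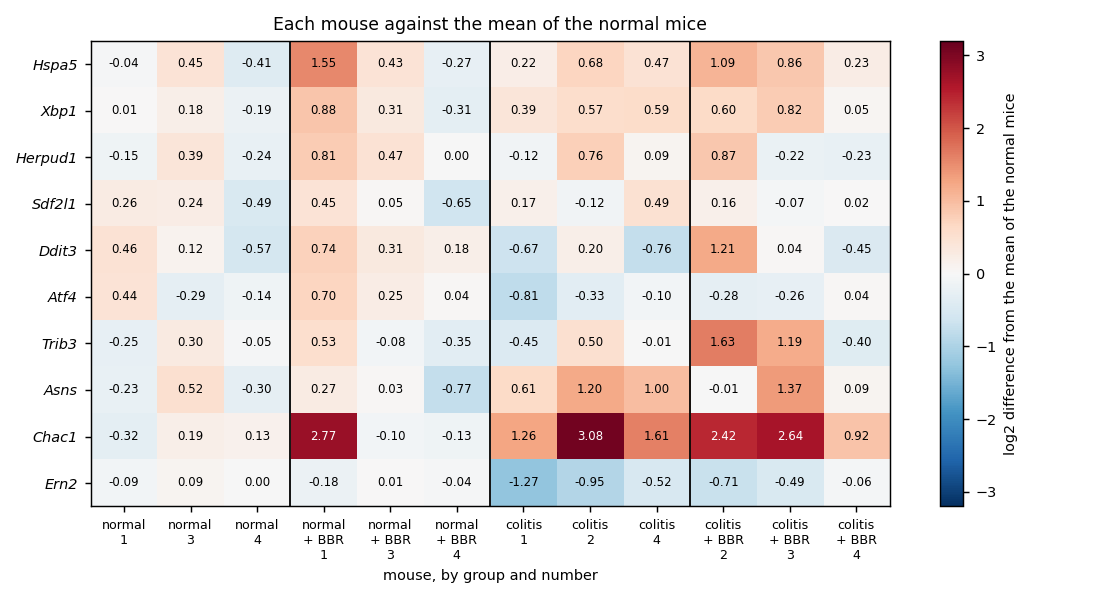
Log2(FPKM + 0.1) of each of the 10 genes (rows) in each of the 12 mice (columns, by group and number) minus the mean of the normal mice; red is higher and blue lower. The BBR-treated normal mouse 1 differs from its group mates, with 1.55 for Hspa5 and 2.77 for Chac1, while Ern2 is between −1.27 and −0.52 in the colitis mice.

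The members moved together in part. Over the 12 mice, Pearson r of log2 levels was 0.91 for Hspa5 and Xbp1, 0.86 for Xbp1 and Chac1 and 0.80 for Hspa5 and Chac1. Asns was at 0.75 with Xbp1. Hspa5 and Atf4 were at 0.18. Ern2 was at −0.62 with Chac1, −0.56 with Asns and −0.51 with Xbp1, and at 0.66 with Atf4, and within groups these were −0.337, 0.078, −0.27 and 0.38. Within groups, after the group means were taken out, r was 0.939 for Hspa5 and Xbp1 and 0.829 for Herpud1 and Ddit3. These points share tissue pieces, library depth and the 4 groups, so they are descriptions. The tested genes most like Hspa5 were Creld2 (0.897), Manf (0.894) and Hsp90b1 (0.860), which encode ER proteins. Manf, a secreted ER stress protein, was also second for Xbp1 (0.908). Sdf2l1 was most like Pdia3 (0.910), a disulfide isomerase.

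**Figure D4:**
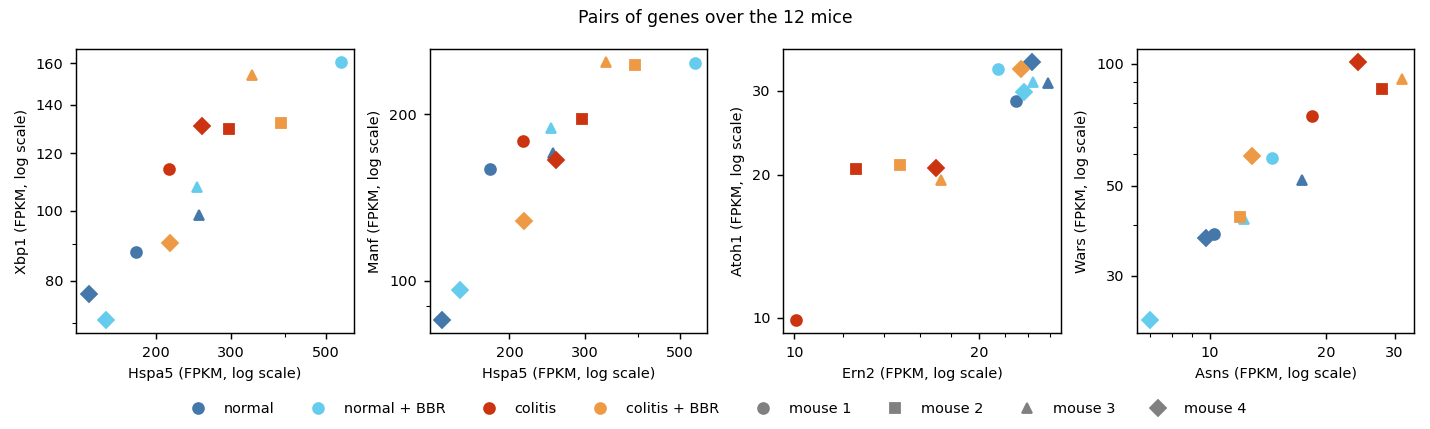
Levels in FPKM (both axes on log scales) of 4 pairs of genes in the 12 mice, coloured by group and shaped by mouse number; the pairs were chosen after their values were seen. Mice with more Hspa5 had more Xbp1 and Manf, and mice with more Asns had more Wars. Colitis mice and BBR-treated colitis mice 2 and 3 lie at the low end of Ern2 and Atoh1.

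Other genes of the pathways were read from 5 lists. None had a gene past limma's adjusted limit in any comparison. Their medians in colitis against normal mice, from −0.28 to 0.14, are to be read against −0.32 for all tested genes, and their counts at an unadjusted p of at most 0.05 against 21.4%. In colitis against normal mice, 14 of 20 ER chaperones and folding enzymes had positive differences, with a median of 0.14 and 1 at that p, and Ero1a, an ER oxidase, was 21.14, 18.24 and 20.75 FPKM in normal and 65.52, 52.16 and 43.13 in colitis mice. The groups did not overlap (1.40, SE 0.34, limma unadjusted p = 0.00169, adjusted p = 0.0698). Of 18 ER degradation genes 12 had negative differences, with a median of −0.10, above that of all tested genes, and 4 had an unadjusted limma p of at most 0.05. Derl3 was 1.53, 1.54 and 2.26 FPKM in normal and 0.26, 0.48 and 1.14 in colitis mice (−1.54, limma adjusted p = 0.0968). It is known in plasma cells, whose summed markers were lower, as given above, and their part was not tested. Edem3 (0.37), which trims sugars on misfolded proteins, and Derl2 (0.47) were higher without overlap, and Rnf139 (−0.57) lower.

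Among the 18 sensors and regulators the differences were positive for 8 and negative for 10 (median −0.20), and Creb3 was the 1 higher without overlap that had an unadjusted limma p of at most 0.05 (0.46). Of 31 tested ATF4 targets and amino acid response genes, from a list of 33, 10 had positive and 21 negative differences (median −0.28), close to all tested genes, and 2 and 3 of them had an unadjusted limma p of at most 0.05. Nupr1, a stress-induced nuclear protein, was 139.71, 150.53 and 59.77 FPKM in normal and 365.03, 870.71 and 160.00 in colitis mice (1.78, SE 0.68, limma adjusted p = 0.176). Ddit4, an mTORC1 inhibitor, was 31.18 ± 1.26 and 48.01 ± 10.2 FPKM (SD, n = 3; 0.60). Slc1a5, a glutamine transporter, and Gpt2, a mitochondrial transaminase, were lower by 1.05 and 1.19 without overlap. Cebpg, a bZIP partner of ATF4, was lower by 0.51.

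With BBR in colitis, 3 of the 107 tested list genes had an unadjusted limma p of at most 0.05 (6.39% of all tested genes). With BBR in normal mice it was 1 of 107 (1.36%). In colitis mice given BBR, Phgdh, the first enzyme of serine synthesis, was 0.62, 2.13 and 2.01 FPKM against 2.63, 2.58 and 6.95 in colitis mice (−1.31, limma adjusted p = 0.66). In normal mice, Dnajb9, an ER co-chaperone, was 83.06, 45.72 and 50.66 with BBR and 32.14, 33.87 and 39.85 without. The groups did not overlap (0.71, SE 0.31, limma unadjusted p = 0.0412, adjusted p = 1.0), and the highest value is again that of mouse 1. Between the BBR-treated groups, 10 of the 107 tested list genes had an unadjusted limma p of at most 0.05, against 19.7% of all tested genes. The differences were positive without overlap for Calr (0.81, limma adjusted p = 0.215), Atf3 (1.14) and Gars (0.50). They were negative without overlap for Derl3 (−1.89, limma adjusted p = 0.182), Rnf139 (−0.60), Ube2j1 (−0.37), Psph (−0.68) and Cebpg (−0.40). The adjusted p of these 8 genes lay between 0.182 and 0.248 by limma.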

How the data were processed

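RNA of 12 mice, 3 a group by their labels, was sequenced. The authors aligned reads with Bowtie2 2.2.5 and estimated expression with RSEM 1.2.12, per the submitters' processing notes, which name mm9. The deposited values, 1 per gene and mouse, were read as FPKM from the values themselves, and TPM is also possible. The labels and the study's methods name different library kits. The values were fitted as log2(FPKM + 0.1) in R 4.3.3 by limma 3.58.1, giving each group a mean, with a trended empirical Bayes spread and Benjamini-Hochberg adjustment over the 15315 genes averaging 0.1 or more. The fit was tried on simulated data with independent noise for each gene and mouse. That leaves out deviations that mice share, so it does not show that the fit holds for these data. Nothing states that the mice of a group were independently housed, so p-values cover the spread between these samples.

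The 10 members, the 5 pathway lists and the marker lists were chosen with earlier results of these data known. All members are named. List genes are named, up to 3 a list and direction, at a mean of at least 1, an unadjusted p of at most 0.05 and no overlap. Likeness is Pearson r over 12 mice, the 3 highest among genes with a mean of at least 1.

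Same-numbered mice deviated from their group means with r of 0.078 to 0.751 over 13 pairs. The 3 pairs of the normal groups were all over 0.1, and a replicate block gave 0 adjusted calls there too. The labels do not say what a number shares.

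The table has no counts. The worth of 1 read was estimated from steps of low values in 3 settings, all tried after the data were seen, because the first gave an uneven range (42.0 to 97.0 FPKM × bases for mice 1 to 3). The others gave 71.5 to 77.0 and 72.5 to 86.0, and the mice numbered 4 gave 50.5 to 57.5 over all 3. The steps were weak, so read numbers are approximate and cover counting error only. Alternatives are in the closing section. Other steps used pandas 2.3.3, SciPy 1.17.1, NumPy 2.4.6 and, for plots, matplotlib 3.10.9 (Python 3.11.15).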

Additional observations from a re-analysis of the deposited data

How the results depend on the processing

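Of 895 member values under the alternatives, over 50 results, 830 kept their direction and their side of limma's adjusted limit and 62 turned direction. Those that turned were uncalled in the values as reported, and the cause was not tested. The other 3 are Ern2 in colitis against normal mice, which passed the limit with a block for the mice numbered 4, without those mice and without colitis mouse 4. The count of members past the limit in that comparison was then 1 in each case, and 0 to 1 over the mice left out in turn.
Counts of all genes past the adjusted limit depended on the setting. In colitis against normal mice, where 165 passed, it was 91 with a pseudocount of 0.01, 71 with a filter at a mean of 1, 258 after quantile normalization, 734 with the replicate block, 1412 with a block for the mice numbered 4, 930 without them, 509 in a fit of the 2 groups alone and 11 (without normal mouse 1) to 211 (without colitis mouse 4) with 1 mouse left out. With BBR in both arms (6), it was 2 without a filter, 3 after centring, 12 without a trend, 268 with the block for the mice numbered 4, 2380 without them, 0 in a fit of the 2 groups alone and 0 to 2256 (without BBR-treated colitis mouse 4) with 1 mouse left out. For BBR in colitis (0), it was 4 with a pseudocount of 1, 2 with 0.01, 1 without a filter, 3 without a trend, 1 with the replicate block, 2 with the block for the mice numbered 4 and 0 to 59 (without BBR-treated colitis mouse 3) with 1 mouse left out. Same-numbered mice had a mean r of 0.34 and mice with other numbers −0.103. Among the mice numbered 4 it was 0.497 (0.357 to 0.751), and among those numbered 1 to 3 it was 0.205 for the same and 0.193 for other numbers. The replicate block changed no member's side of the adjusted limit. By limma's unadjusted p, with 0.05 as the limit, it brought in Ddit3 in colitis against normal mice (limma unadjusted p = 0.00789, adjusted p = 0.0811), Ddit3 for BBR in colitis (limma unadjusted p = 0.00699, adjusted p = 0.253) and Herpud1 with BBR in both arms (0.0478, adjusted p = 0.22). It took out Chac1 in colitis against normal mice (limma unadjusted p = 0.0706, adjusted p = 0.225) and Ern2 for BBR in colitis (limma unadjusted p = 0.0704, adjusted p = 0.512).
Members turned direction as follows, on the log2 scale. After quantile normalization, Xbp1 was 0.0283 for BBR in colitis and Ddit3 0.0805 with BBR in both arms. After centring, BBR in colitis gave Xbp1 0.1236, Herpud1 0.0479 and Sdf2l1 0.0088, BBR in both arms gave Herpud1 0.1662, Ddit3 0.3085 and Ern2 0.1059, and the interaction gave Sdf2l1 0.0232 and Atf4 0.0314. With the replicate block, Herpud1 was −0.0154 and Trib3 −0.1908 in colitis against normal mice, and the interaction of Atf4 was 0.0256. Without the mice numbered 4, Sdf2l1 was −0.2218 in colitis against normal mice, BBR in colitis gave Xbp1 0.2269, Herpud1 0.0013 and Sdf2l1 0.0229, BBR in normal gave Sdf2l1 0.0011, BBR in both arms gave Hspa5 −0.018, Sdf2l1 −0.2001 and Ddit3 0.1003, and the interaction of Sdf2l1 was 0.0218.
With 1 mouse left out, the ranges in colitis against normal mice were −0.0167 to 0.4377 for Herpud1, −0.0654 to 0.3318 for Sdf2l1 and −0.227 to 0.2467 for Trib3. For BBR in normal they were −1e-04 to 0.5916 for Xbp1, −0.2984 to 0.2477 for Sdf2l1, −0.2163 to 0.221 for Trib3, −0.3715 to 0.1475 for Asns and −0.113 to 1.3381 for Chac1. With BBR in both arms they were −0.2674 to 0.6447 for Hspa5, −0.1018 to 0.4899 for Xbp1, −0.2091 to 0.3371 for Sdf2l1 and −0.6151 to 0.2159 for Ddit3. For BBR in colitis they were −0.1918 to 0.1919 for Xbp1, −0.4677 to 0.1568 for Herpud1, −0.2932 to 0.0139 for Sdf2l1 and −0.3506 to 0.5579 for Chac1. For the interaction they were −0.7231 to 0.1889 for Hspa5, −0.3903 to 0.1559 for Sdf2l1, −0.2057 to 0.6253 for Ddit3, −0.3032 to 0.0993 for Atf4 and −1.3272 to 0.1238 for Chac1. Trib3 and Chac1 rest on few reads, which limits both.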
